A study of Mus musculus with 9 samples.

Results

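Cytochromes P450 of families 1, 2 and 3 are haem enzymes of the endoplasmic reticulum that oxidise drugs, pollutants, steroids, retinoids and fatty acids. Hepatocytes hold most of them, and each lobule lays them out in zones, with many of the xenobiotic-oxidising enzymes around the central vein. The nuclear receptors CAR and PXR and the aryl hydrocarbon receptor induce members of the family, HNF4α maintains it in hepatocytes, growth hormone sets its sex-dependent members, and inflammation is known to lower many of its transcripts. The family was read here in whole liver as every measured gene whose platform symbol begins with Cyp1, Cyp2 or Cyp3 followed by a letter, which leaves out genes such as Cyp17a1. This gave 60 genes of the 19494 genes that carry 1 symbol on the array, each with 1 probe set, and no measured value entered the choice.

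The livers came from 9 female C57BL/6 mice, 6 weeks old per the labels, with 3 mice in each of 3 groups and 1 array per mouse. Mock mice were wild type and not injected. Mice of the AAV-IFNα group received intravenously an adeno-associated virus that carries mouse IFNα1, a type I interferon, and mice of the AAV combination group received AAV-IFNα + AAV-L37pA, the added vector encoding a peptide that mimics apolipoprotein A-I. Both vectors use the elongation factor 1α promoter, which is active in most cell types, and livers were taken at day 15. No array came from mice given a control vector or AAV-L37pA alone, and the AAV combination meant a larger total dose of vector. IFNα and the vector that carries it therefore cannot be told apart when injected mice are set against Mock. Values are log2 levels after the RMA algorithm, which subtracts background, normalizes the arrays and summarises each probe set, on which a difference of 1 is a doubling, and they are not comparable between genes. The medians of the arrays ran from 5.78 to 5.83. Precision is limited by how few arrays there are.

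Of the 60 genes, 51 were tested, having 2 or more samples of a condition above a value of 5. The same filter left 14715 probe sets of the whole array. The 9 that did not pass were Cyp1a1, Cyp1b1, Cyp2b19, Cyp2c66, Cyp2j8, Cyp2j11, Cyp2j12, Cyp2j13 and Cyp2t4. Cyp1a1, a classical target of the aryl hydrocarbon receptor, lay between 3.79 and 4.61 in all 9 mice, and Cyp1b1, best known outside the liver, lay between 4.15 and 4.92. Cyp2d13 and Cyp2d37-ps are annotated as pseudogenes in RefSeq, and Cyp2c29 is not analysed here. Tests were two-sided with limma in 1 fit over all arrays, and a gene was called at a Benjamini-Hochberg adjusted p under 0.05 over all probe sets tested. An exact test of 3 mice against 3 cannot go below p = 0.10, and the labels do not say how the mice of a group were housed or injected, so the p-values measure only the spread between these samples. The 11 measured hepatocyte markers were bright in every mouse, with a mean level between 12.29 and 12.43 in Mock, 12.34 and 12.40 in AAV-IFNα and 12.26 and 12.45 in the AAV combination, and limma called 0 of them in any comparison (at an unadjusted p under 0.05, 1 was lower in AAV-IFNα than in Mock). In whole tissue, fewer cells of a type and less RNA per cell cannot be told apart.

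Several members are near copies of each other, and this shows in the sequence before their transcription starts. RefSeq (GRCm38.p6) gave 54 promoters for 51 of the 60 genes, and over the 250 bases before the start Cyp3a41a and Cyp3a41b were 99.6% identical, Cyp2b9 and Cyp2b13 99.2%, and Cyp2a4 and Cyp2a5 97.6%. Probe sets of such genes can read each other's transcripts, so the values of these pairs, of the Cyp3a16, Cyp3a41 and Cyp3a44 genes and of the Cyp2c40, Cyp2c67, Cyp2c68 and Cyp2c69 genes are uncertain as to which copy they measure. The sequences of the probes and of the transcripts were not compared. The stretches below belong to the called genes Cyp2c69, Cyp2c37 and Cyp3a44 and, to show how alike the copies are, to relatives of Cyp2c69 and Cyp3a44 that were not called. Capitals mark the core CAAAGTCCA, which HNF4α binds, or its closest match.
Cyp2c67, chr19:39649129-39649227, minus strand: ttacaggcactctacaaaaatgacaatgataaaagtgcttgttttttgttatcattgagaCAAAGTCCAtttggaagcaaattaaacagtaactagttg
Cyp2c68, chr19:39741140-39741238, minus strand: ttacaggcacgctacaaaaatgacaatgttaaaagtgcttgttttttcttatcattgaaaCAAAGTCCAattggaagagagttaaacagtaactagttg
Cyp2c40, chr19:39812821-39812919, minus strand: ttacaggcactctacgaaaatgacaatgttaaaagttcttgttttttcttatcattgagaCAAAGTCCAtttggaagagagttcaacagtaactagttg
Cyp2c69, chr19:39886806-39886904, minus strand: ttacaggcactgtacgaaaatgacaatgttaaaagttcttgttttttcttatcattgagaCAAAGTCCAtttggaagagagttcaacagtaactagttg
Cyp2c37, chr19:39992248-39992346, plus strand: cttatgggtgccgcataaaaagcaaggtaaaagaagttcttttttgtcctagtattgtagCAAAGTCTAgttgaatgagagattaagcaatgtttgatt
Cyp3a41a, chr5:145720193-145720291, minus strand: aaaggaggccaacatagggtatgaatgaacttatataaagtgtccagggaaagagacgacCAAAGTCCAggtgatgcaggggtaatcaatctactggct
Cyp3a44, chr5:145805931-145806029, minus strand: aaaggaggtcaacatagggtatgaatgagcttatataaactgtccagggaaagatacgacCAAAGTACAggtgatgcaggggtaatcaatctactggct

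The 99-base stretches of Cyp2c40 and Cyp2c69 share 98 bases and those of Cyp3a41a and Cyp3a44 share 94, whereas Cyp2c37, on the other strand, shares 49 bases with Cyp2c69. Counted from 1 at the 5′ end of the core, Cyp2c37 carries C8T and Cyp3a44 carries C7A. The exact core stood on either strand in 10 of the 54 P450 promoters (18.5%), against 126 of 32851 promoters in all (0.4%). These 10 are Cyp2c40, Cyp2c65, Cyp2c67, Cyp2c68, Cyp2c69, Cyp2c70, Cyp3a11, Cyp3a16, Cyp3a41a and Cyp3a41b, which are related genes and not independent occurrences. The same windows were searched on both strands for 5 other patterns, and matches of different patterns may overlap. TATAAA, the TATA box, stood in 42.6% of the P450 promoters and 12.4% of all. For TTCNNNGAA, which STAT proteins bind, the shares were 3.7% and 7.0%, for GAAA, any 2 bases and GAAA again, bound by interferon-activated factors, 1.9% and 3.0%, for GCGTG, the core of the aryl hydrocarbon receptor, 18.5% and 28.2%, and for TTGNNCAA, bound by C/EBP proteins, 9.3% and 5.6%. A match is a description of the letters and shows no binding.

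With AAV-IFNα, 41 of the 51 tested members were not called against Mock, and the called members went in both directions. Cyp2e1, the ethanol- and paracetamol-oxidising enzyme, Cyp2c37, which oxidises arachidonic acid, and the female-predominant Cyp3a44 and Cyp2c69 were lower than in Mock, by 1.65-fold to 4.24-fold. Cyp2f2, the naphthalene-oxidising enzyme of periportal hepatocytes, Cyp2d9, a steroid hydroxylase that predominates in male mice, Cyp3a13, Cyp2a5 and Cyp2a12 were higher, by 1.41-fold to 1.73-fold. In all, limma called 10 of the 51 genes (19.6%), a share close to the 16.3% called among all probe sets tested. The 5 higher genes were 9.8% of the members against a background of 11.2%, and the 5 lower genes were 9.8% against 5.06%. A B-statistic above 0, the threshold of the study's methods, was met by 3 members, Cyp2d9, Cyp2c37 and Cyp3a44 (5.88%, against 6.03% of all). The groups did not overlap in 9 members that were higher (17.6%, against 19.6% of all) and 11 that were lower (21.6%, against 16.4%). The median log2 fold change was -0.14 over the 51 genes and -0.02 over all probe sets. After a further quantile normalization the split was 5 higher and 12 lower in place of 5 and 5.

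**Figure D1:**
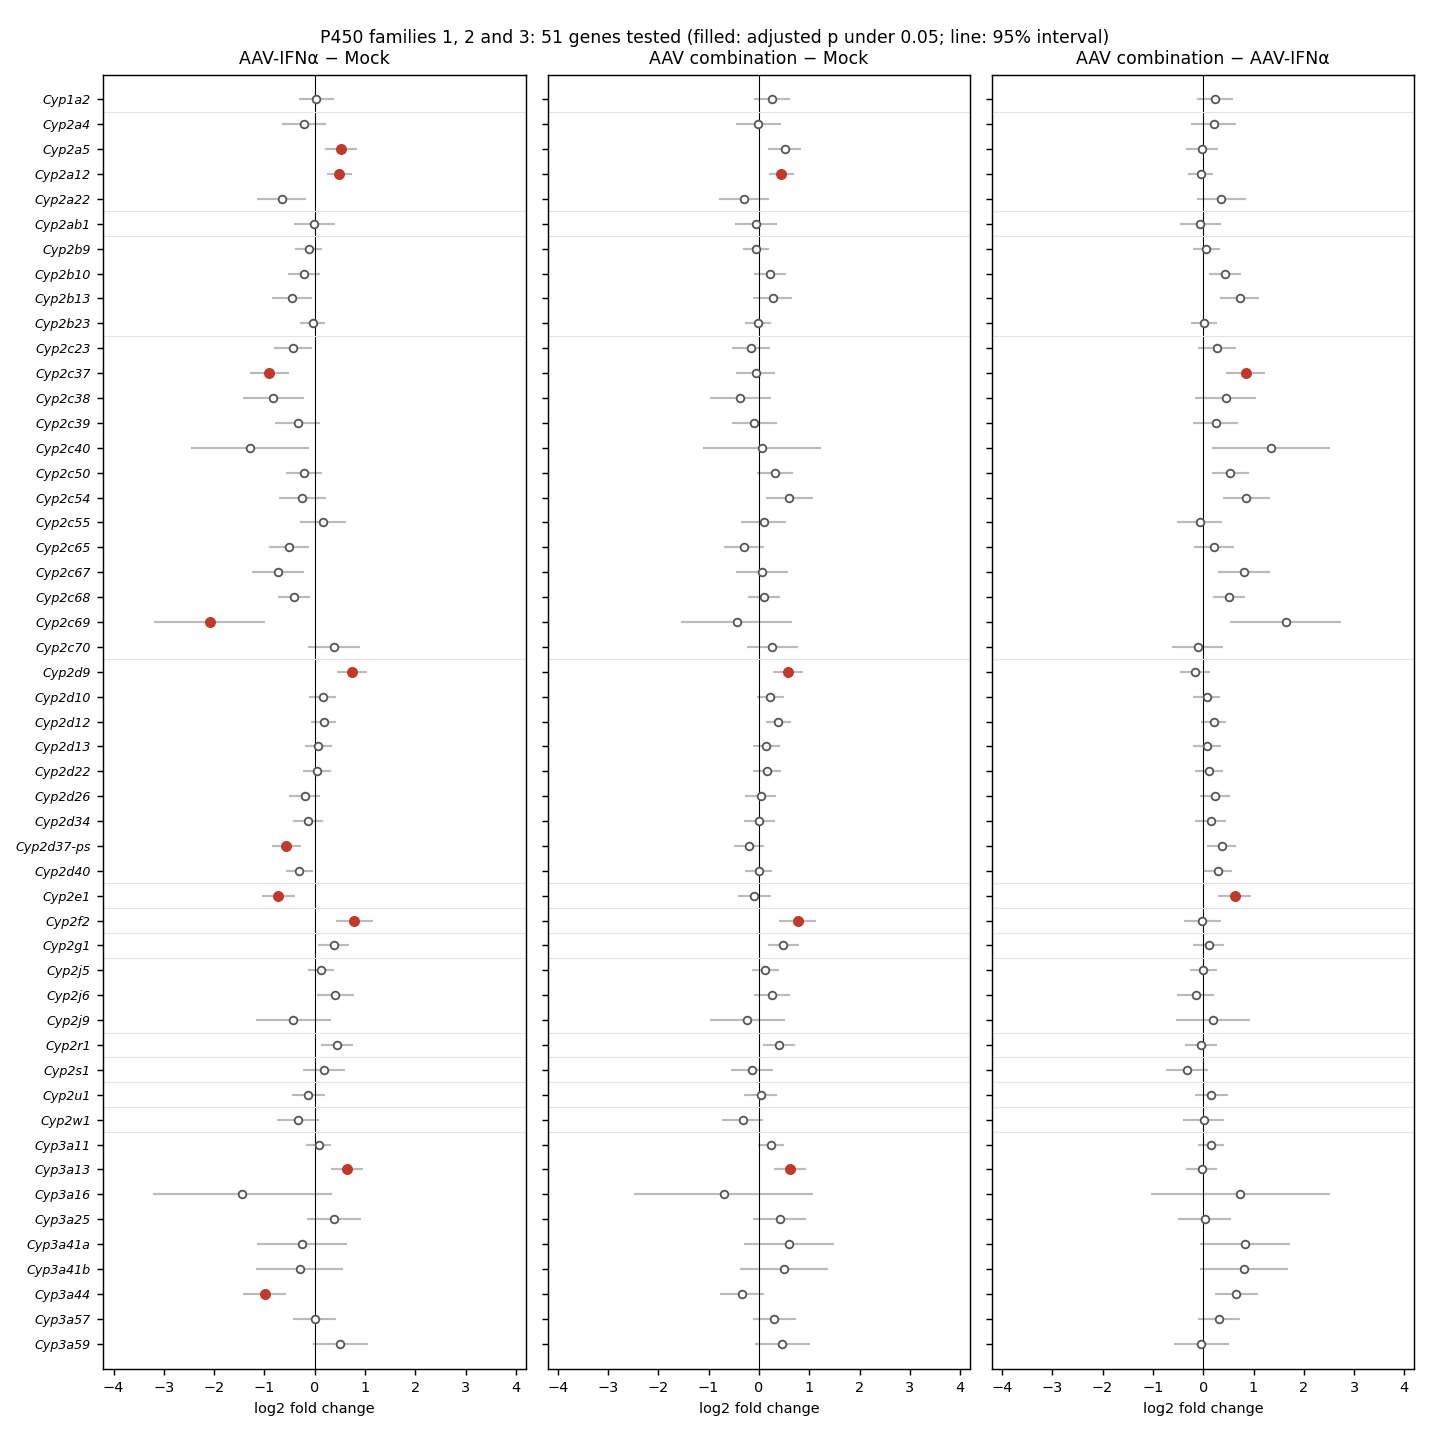
Log2 fold change (horizontal axis) of each of the 51 tested genes, ordered by subfamily, in the 3 comparisons, with its 95% interval from limma as a line and filled points for an adjusted p under 0.05. Filled points lie on both sides of 0 for AAV-IFNα against Mock (5 and 5) and only to the right in the other panels (4 and 2).

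Cyp2e1 had log2 values of 12.82, 12.45 and 12.70 in Mock, 12.07, 11.88 and 11.83 with AAV-IFNα, and 12.81, 12.34 and 12.52 in the AAV combination. Every AAV-IFNα mouse lay below every mouse of the other groups, which overlapped each other. It fell by 0.72 on the log2 scale with AAV-IFNα (limma adjusted p = 0.00591, with a standard error, SE, of 0.15). Cyp2c37 read 10.86, 10.35 and 10.86 in Mock, 9.57, 9.80 and 9.98 with AAV-IFNα, and 10.89, 10.36 and 10.64 in the combination. The AAV-IFNα mice were again the lowest 3 of the 9, at a log2 fold change of -0.91 (limma adjusted p = 0.00404, SE 0.18). Cyp3a44, one of the Cyp3a genes more abundant in female liver, read 7.76, 8.42 and 8.60 in Mock, 6.97, 7.40 and 7.42 with AAV-IFNα, and 7.92, 7.90 and 7.94 in the combination. Its change of -0.99 (limma adjusted p = 0.00415, SE 0.20) came without overlap with either other group.

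Cyp2c69, predominant in female liver, gave the largest fold change of the called members and rested in part on 1 mouse. Its values were 11.77, 11.86 and 11.76 in Mock, 7.93, 10.69 and 10.52 with AAV-IFNα, and 11.28, 11.42 and 11.38 in the combination, with no overlap between any of the groups. The difference from Mock of -2.09 (limma adjusted p = 0.0145, SE 0.51) became -1.19 without AAV-IFNα mouse 1 (adjusted p = 9.8e-05), and the call was lost with a trended and robust prior (adjusted p = 0.0989). The pseudogene Cyp2d37-ps, 10.21 to 10.41 in Mock and 9.57 to 9.92 with AAV-IFNα, changed by -0.56 (adjusted p = 0.0124, limma), a call that ended without AAV-IFNα mouse 2 (-0.47, adjusted p = 0.0565).

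**Figure D2:**
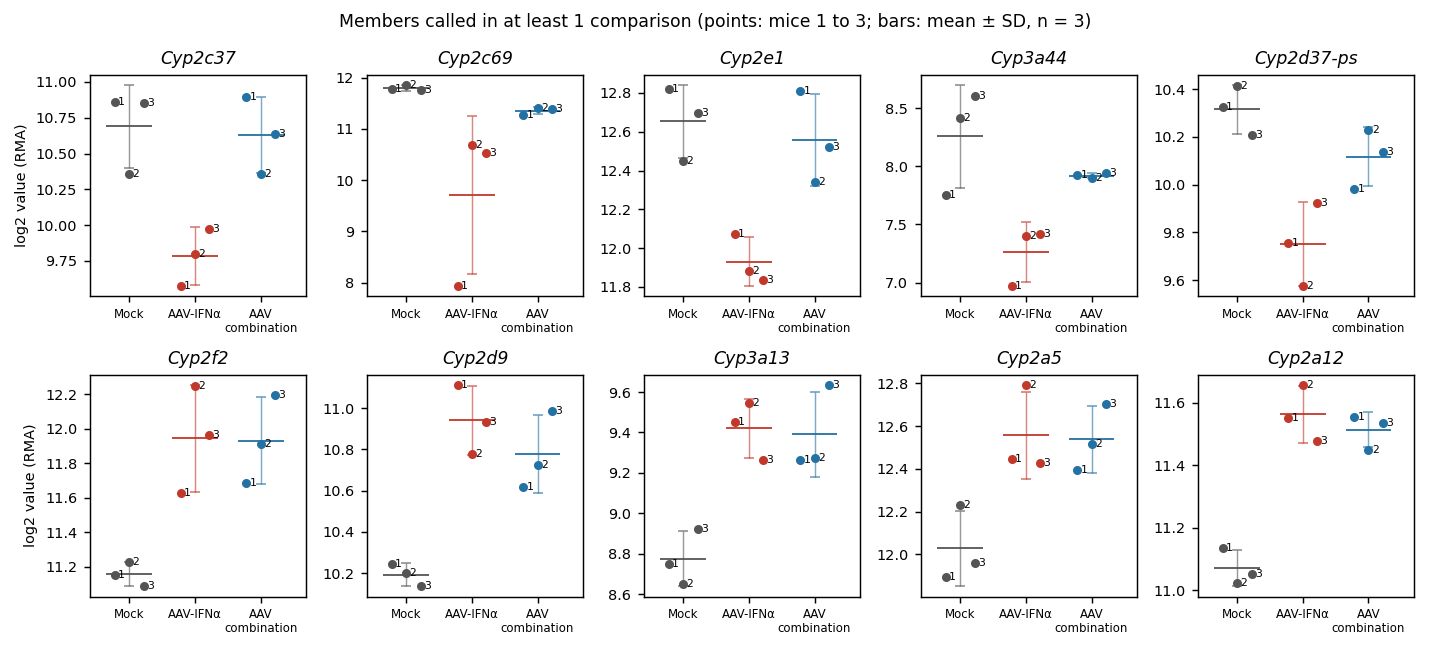
Log2 value (vertical axis, a separate scale per gene) of the 10 genes called in at least 1 comparison, with a numbered point per mouse, the mean as a line and the SD as error bars (n = 3 per group). In the upper row the AAV-IFNα mice lie lowest; in the lower row both treated groups lie above Mock.

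Of the 5 members that rose with AAV-IFNα, 4 also rose in the AAV combination, while Cyp2a5, with a like fold change in both, missed the threshold there. Cyp2f2 read 11.15, 11.23 and 11.09 in Mock, 11.63, 12.24 and 11.96 with AAV-IFNα, and 11.69, 11.91 and 12.19 in the combination. All 6 injected mice lay above all Mock mice, and the log2 fold change was 0.79 for AAV-IFNα and 0.77 for the combination (limma adjusted p = 0.00708 and 0.020). Cyp2d9 read 10.24, 10.20 and 10.13 in Mock, 11.11, 10.78 and 10.93 with AAV-IFNα, and 10.62, 10.73 and 10.99 in the combination, again without overlap with Mock. It rose by 0.75 and 0.58 on the log2 scale (limma adjusted p = 0.00252 and 0.0282, SE 0.14 for both).

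Cyp3a13, a member of the subfamily that handles the widest range of drugs, read 8.75, 8.65 and 8.92 in Mock, 9.45, 9.55 and 9.26 with AAV-IFNα, and 9.26, 9.27 and 9.64 in the combination. It rose by 0.64 (adjusted p = 0.00875, limma) and 0.61 (adjusted p = 0.0274) on the log2 scale, and no injected mouse reached down to a Mock value. Cyp2a12, a steroid hydroxylase, ranged from 11.02 to 11.13 in Mock, 11.48 to 11.66 with AAV-IFNα and 11.45 to 11.55 in the combination, and rose by 0.49 (adjusted p = 0.012, limma) and 0.44 (adjusted p = 0.0453). Cyp2a5, the coumarin hydroxylase, read 11.89, 12.23 and 11.96 in Mock, 12.45, 12.79 and 12.43 with AAV-IFNα, and 12.39, 12.52 and 12.70 in the combination. Its log2 fold change of 0.53 was called with AAV-IFNα (adjusted p = 0.0292, limma), though not without Mock mouse 1 or 3 or AAV-IFNα mouse 2 (adjusted p of 0.0967, 0.0827 and 0.116), and 0.51 in the combination was not called (adjusted p = 0.0678). The latter passed with a trended and robust prior (adjusted p = 0.0284), median centring (0.0476), array weights (0.0267) and without Mock mouse 2 (0.0429), and the adjusted p reached 0.247 without combination mouse 3. For Cyp2a5 and Cyp2a12, too, the values of the injected mice and of the Mock mice did not overlap.

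Against Mock, the AAV combination called 4 of the 51 genes (7.84%, against 5.21% of all probe sets), and all 4 were higher (7.84%, against 4.19% of all). These were Cyp2f2, Cyp3a13, Cyp2d9 and Cyp2a12. None was lower by limma, against 1.03% of all probe sets, nor at an unadjusted p under 0.05 (0 genes, against 9.22% of all), and 0 had a B-statistic above 0 (2.4% of all). The combination mice lay above all Mock mice in 13 members (25.5%, against 15.3% of all) and below them in 1, Cyp2c69 (1.96%, against 12.5%). The median log2 fold change over the members was 0.10, beside 0.00 over all probe sets. These calls lay near the threshold. None of the 4 remained without combination mouse 2, combination mouse 3 or Mock mouse 1. Only Cyp2f2 of the 4 remained without Mock mouse 2, and only Cyp3a13 without Mock mouse 3. Other members were called in place of them without Mock mouse 1 (Cyp2c54 higher and Cyp3a16 lower) and without Mock mouse 2 (Cyp2a5 higher and Cyp2c38 lower). In the combination, Cyp2e1 (-0.10, adjusted p = 0.751, 95% interval -0.42 to 0.23) and Cyp2c37 (-0.06, adjusted p = 0.875, 95% interval -0.45 to 0.33) were not called against Mock.

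The direct comparison of the treated groups bears on what the added AAV-L37pA vector changed. Over AAV-IFNα, Cyp2c37 was 0.85 higher on the log2 scale in the AAV combination (1.80-fold, limma adjusted p = 0.0256, SE 0.18) and Cyp2e1 was 0.63 higher (1.55-fold, limma adjusted p = 0.0472, SE 0.15). These were the 2 genes called (3.92%, against 2.6% of all probe sets), both higher, whereas 0.394% of all probe sets were called higher. No member was called lower, against 2.2% of all probe sets, with 0 also at an unadjusted p under 0.05, and 1, Cyp2c37, had a B-statistic above 0 (1.96%, against 1.78% of all). The comparison shares its AAV-IFNα mice with that against Mock. Of the 51 genes, 39 had a positive log2 fold change (76.5%, against 51.1% of all), with a median of 0.20 beside 0.01 over all probe sets. All 3 combination mice lay above all 3 AAV-IFNα mice in 16 genes (31.4%, against 7.4% of all), and none lay below in this way (10.1% of all).

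Both calls between the treated groups were weak. Neither remained without combination mouse 1, combination mouse 3, AAV-IFNα mouse 1 or AAV-IFNα mouse 2. Without AAV-IFNα mouse 1 the 1 gene called was Cyp2c69, and without AAV-IFNα mouse 2 it was Cyp2c67, both higher in the combination. Cyp2c37 remained and Cyp2e1 did not without AAV-IFNα mouse 3, combination mouse 2, Mock mouse 1 or Mock mouse 3. Cyp2c54 and Cyp3a44 were called higher besides without Mock mouse 1, and Cyp2b13 without combination mouse 2. Both remained without Mock mouse 2, where Cyp2b13 and Cyp2c54 were called as well. For Cyp2e1 the adjusted p over the alternatives ran from 0.0164 to 0.199, and for Cyp2c37 from 0.0131 to 0.136. The members that rose over Mock in both treated groups gave differences near 0 between these groups, none called by limma. The difference was -0.01 for Cyp2f2 (95% interval -0.38 to 0.35), -0.03 for Cyp3a13 (-0.34 to 0.28), -0.05 for Cyp2a12 (-0.30 to 0.20), -0.02 for Cyp2a5 (-0.34 to 0.30) and -0.16 for Cyp2d9 (-0.46 to 0.13). Arrays centred on their median turned the sign for Cyp2f2 and Cyp2a5, and array weights for these and Cyp3a13.

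Cyp2e1 and Cyp2c37 belong to the pericentral zone, and other pericentral transcripts moved with them. Of 8 tested pericentral markers outside the family, 5 were lower and 1 higher with AAV-IFNα than in Mock. In the combination, 3 were higher than with AAV-IFNα. Of all probe sets, the background for each list here, 11.2% were called higher and 5.06% lower with AAV-IFNα than in Mock. Between the treated groups, 0.394% were higher and 2.2% lower in the combination. Slc1a2, a glutamate transporter, changed by -1.86 with AAV-IFNα against Mock (adjusted p = 3.0e-05, limma) and was 1.33 higher in the combination than with AAV-IFNα (adjusted p = 0.0039), and Oat, ornithine aminotransferase, changed by -0.81 (adjusted p = 0.016) and 1.15 (adjusted p = 0.0087). The mean level of the 8 markers lay between 8.59 and 8.87 in Mock, 8.18 and 8.23 with AAV-IFNα, and 8.61 and 8.81 in the combination. Other cell types moved in the same livers. Of 10 tested markers of monocytes and macrophages, 6 were called higher with AAV-IFNα than in Mock and 3 were called lower when the combination was set against AAV-IFNα. The mean of the 11 measured lay between 6.06 and 6.16 in Mock, 7.16 and 7.86 with AAV-IFNα, and 6.76 and 7.04 in the combination. Of 9 tested markers of T and NK cells, 6 and 5 were called in the same 2 directions, and the mean of the 12 measured lay between 4.88 and 5.08, 5.68 and 6.23, and 5.02 and 5.11 in the same order. Of 7 tested periportal markers, 2 were higher with AAV-IFNα than in Mock. Their part in the P450 values was not tested. Of the 7 pericentral members tested, Cyp2a5 was higher and Cyp2c37 and Cyp2e1 lower with AAV-IFNα than in Mock. The other 4 are Cyp1a2, Cyp2c50, Cyp2c54 and Cyp3a11, and none of them was called in any comparison.

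The Cyp2c subfamily, which metabolises arachidonic acid and many drugs, held the member with the largest fold change in both comparisons that involve AAV-IFNα, Cyp2c69. Of its 13 tested genes, 11 had a negative log2 fold change with AAV-IFNα against Mock (median -0.43; 52.5% of all probe sets were negative), of which Cyp2c37 and Cyp2c69 were called lower (5.06% of all). In the combination against AAV-IFNα 11 had a positive one (median 0.51; 51.1% of all), of which Cyp2c37 was called higher (0.394% of all). After a further quantile normalization the first count stayed at 11, and 6 were called lower with AAV-IFNα in place of 2, with Cyp2c23, Cyp2c38, Cyp2c67 and Cyp2c68 added. The genes of this paragraph other than those called were chosen after their values were seen. Cyp2c40 read 11.34, 11.24 and 11.13 in Mock, 8.05, 10.94 and 10.86 with AAV-IFNα, and 11.08, 11.39 and 11.43 in the combination. Cyp2c67 read 10.32, 10.44 and 10.19, then 8.86, 10.08 and 9.79, then 10.48, 10.41 and 10.26. In both genes, as in Cyp2c69, AAV-IFNα mouse 1 lay far below the other 2 mice of its group, which themselves lay below every Mock mouse. Neither passed the test with AAV-IFNα against Mock (-1.29 and -0.74, adjusted p = 0.124 and 0.0525, limma). Cyp2c68, at 10.39 to 10.67 in Mock, 9.81 to 10.33 with AAV-IFNα and 10.52 to 10.70 in the combination, gave -0.41 with AAV-IFNα (adjusted p = 0.082, limma). Cyp2c54, at 8.90 to 9.93 in Mock, 8.98 to 9.40 with AAV-IFNα and 9.97 to 10.19 in the combination, was 0.86 higher in the combination than with AAV-IFNα at an adjusted p of 0.0566.

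**Figure D3:**
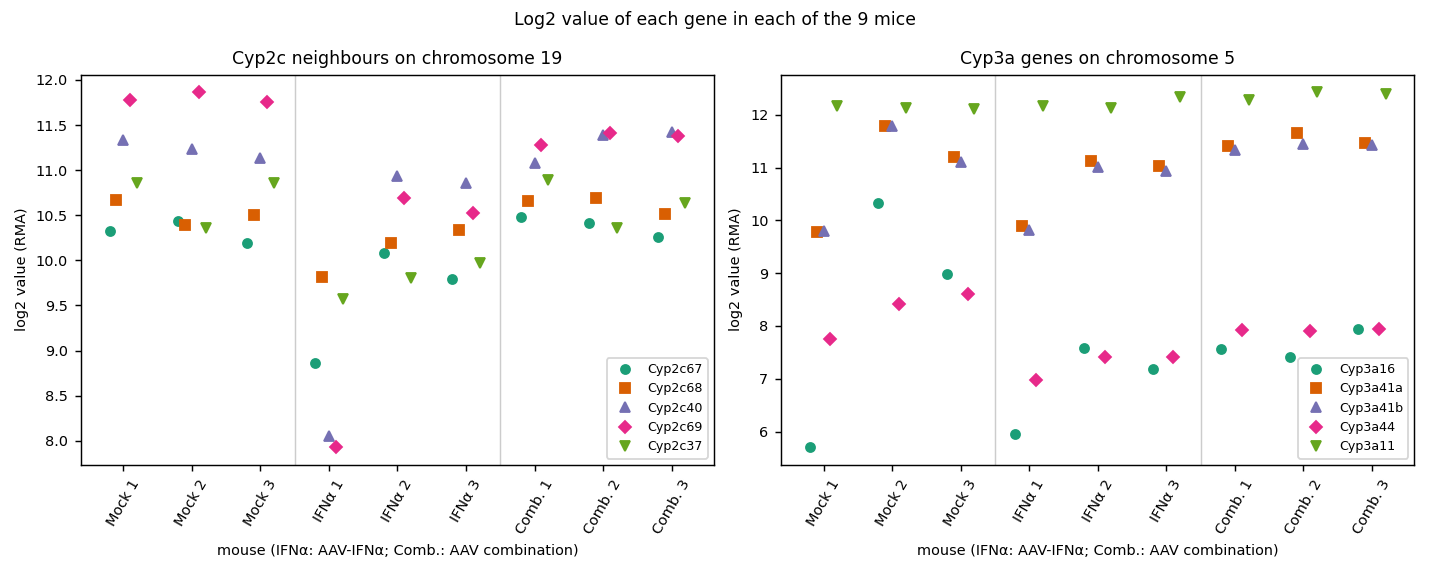
Log2 value (vertical axis) of 5 Cyp2c genes of chromosome 19 (left) and 5 Cyp3a genes of chromosome 5 (right) in each of the 9 mice (horizontal axis; a marker shape per gene, levels of different genes not comparable). AAV-IFNα mouse 1 stands low in Cyp2c40, Cyp2c67 and Cyp2c69, and Mock mouse 1 and AAV-IFNα mouse 1 stand low in Cyp3a16, Cyp3a41a and Cyp3a41b.

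Members known to predominate in female liver numbered 9, and all 9 were tested. Each had a negative log2 fold change with AAV-IFNα against Mock (median -0.45; 52.5% of all probe sets were negative), of which Cyp2c69 and Cyp3a44 were called lower (5.06% of all). Each had a positive one in the combination against AAV-IFNα (median 0.74, the value of Cyp3a16; 51.1% of all were positive), of which 0 were called by limma (0.394% of all were called higher) and 4 had an unadjusted p under 0.05 (3.94% of all). The list was written with earlier results of these data known, so these counts only describe it. The 9 hold near copies, such as Cyp3a41a with Cyp3a41b and Cyp2b9 with Cyp2b13, and are not independent measurements. Cyp3a41a, which like Cyp3a41b stands among them, read 9.78, 11.79 and 11.19 in Mock, 9.89, 11.12 and 11.02 with AAV-IFNα, and 11.42, 11.65 and 11.47 in the combination. Mock mouse 1 and AAV-IFNα mouse 1 lay low and the groups overlapped, so that the difference of -0.24 between AAV-IFNα and Mock was not called (adjusted p = 0.713, limma). Cyp3a16, of the same list and best known from the fetal liver, was chosen after its values were seen and spread most, with 5.70, 10.33 and 8.99 in Mock, 5.95, 7.58 and 7.18 with AAV-IFNα, and 7.56, 7.41 and 7.95 in the combination. The range within a group exceeded 1 on the log2 scale in 8 members in Mock, in 6 with AAV-IFNα and in 0 in the combination. The median within-group SD of the members was 0.23, beside 0.18 over all probe sets tested. Cyp2b9, also female-predominant and close in sequence to Cyp2b13, stayed between 11.67 and 11.94 in all 9 mice and was not called (adjusted p = 0.53, 0.807 and 0.925 in the comparisons of AAV-IFNα with Mock, the combination with Mock and the combination with AAV-IFNα).

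The members by which induction through a xenobiotic receptor is usually read were not called, apart from Cyp2c37. Between the treated groups, 4 of the 6 tested targets of CAR or PXR were higher in the combination at an unadjusted limma p under 0.05. The share of all probe sets was 3.94%, and 1 of the 6 had a negative log2 fold change. Cyp1a2, the caffeine-oxidising target of the aryl hydrocarbon receptor, read 11.18, 11.28 and 10.99 in Mock, 11.33, 11.41 and 10.81 with AAV-IFNα, and 11.28, 11.43 and 11.53 in the combination. The groups overlapped, and the log2 fold change of 0.035 with AAV-IFNα had a 95% interval of -0.32 to 0.39 (adjusted p = 0.904, limma). Cyp3a11, the main PXR target among the mouse Cyp3a genes, stayed between 12.11 and 12.43 in all mice, with 0.08 with AAV-IFNα (95% interval -0.18 to 0.33, adjusted p = 0.677). In the combination, Cyp3a11 was 0.23 above Mock without overlap and was not called (adjusted p = 0.261, limma). Cyp2b10, the CAR target, read 10.11, 9.96 and 10.00 in Mock, 9.72, 9.72 and 10.01 with AAV-IFNα, and 10.22, 10.01 and 10.50 in the combination. Its log2 fold change with AAV-IFNα against Mock was -0.21 (adjusted p = 0.351, limma), and its difference of 0.43 between the treated groups did not pass the test (adjusted p = 0.208), although the combination mice lay above the AAV-IFNα mice. Cyp2r1, a vitamin D hydroxylase, gave 0.44 with AAV-IFNα (adjusted p = 0.059, limma), with 6.51 to 6.86 in Mock and 6.98 to 7.34 with AAV-IFNα.

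Transcripts of the receptors and regulators of P450 genes were compared in the same fit. Of 22 tested, limma called 0 in each comparison. Of all probe sets, 16.3% were called for AAV-IFNα against Mock, 5.21% for the combination against Mock and 2.6% for the combination against AAV-IFNα. At an unadjusted limma p under 0.05, 1 was higher and 3 were lower with AAV-IFNα than in Mock (18.3% and 13.7% of all probe sets). In the combination, 1 was higher and 1 lower than in Mock (13.2% and 9.22% of all). Between the treated groups, 3 were higher and 0 lower in the combination (3.94% and 7.89% of all). The log2 fold changes of the 22 ran from -1.10 to 0.42 with AAV-IFNα against Mock and from -0.55 to 0.49 in the combination against Mock. Between the treated groups they ran from -0.36 to 1.37. Nr1i2, which encodes PXR, changed by 0.01 with AAV-IFNα (adjusted p = 0.97, limma), Nr1i3, which encodes CAR, by -0.20 (adjusted p = 0.60), and Hnf4a by 0.19 (adjusted p = 0.33). Ahr, which encodes the aryl hydrocarbon receptor, gave 0.42 (adjusted p = 0.103), with 7.19 to 7.79 in Mock and 7.75 to 8.09 with AAV-IFNα. After a further quantile normalization Cebpa and Hlf were called lower with AAV-IFNα (2 of 22). A transcript level does not show the activity of a receptor.

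Every P450 carries haem, and the transcripts of haem breakdown rose with AAV-IFNα. Hmox1, the haem oxygenase, read 7.04, 7.49 and 7.41 in Mock, 9.61, 9.06 and 9.64 with AAV-IFNα, and 8.71, 8.31 and 8.63 in the combination, so that the groups did not overlap. Over Mock it rose by 2.12 and 1.24 on the log2 scale in the treated groups (limma adjusted p = 4.0e-06 and 0.0013), and the combination differed from AAV-IFNα by -0.89 (adjusted p = 0.023). The biliverdin reductases Blvra and Blvrb, which act after it, rose by 0.61 and 0.93 with AAV-IFNα (limma adjusted p = 0.0026 and 0.0021), and Blvrb also rose in the combination, by 0.83 (adjusted p = 0.012). Alad, an early enzyme of haem synthesis, read 9.40, 9.20 and 9.02 in Mock and 8.70, 8.65 and 8.57 with AAV-IFNα, a log2 fold change of -0.57 (adjusted p = 0.014, limma). Alas1, the first enzyme of that pathway, overlapped between groups (9.62 to 11.08 in Mock, 10.71 to 11.26 with AAV-IFNα) and was not called (adjusted p = 0.28). Of 15 tested genes of redox partners and haem metabolism, 4 rose and 2 fell with AAV-IFNα (3 and 5 after a further quantile normalization). Of all probe sets, 11.2% were called higher and 5.06% lower with AAV-IFNα against Mock. In the combination, 2 rose against Mock (4.19% of all). Hmox1 alone was lower in the combination than in the AAV-IFNα mice (2.2% of all). Hmox1 is also a gene of macrophages, and the part of their markers in its values was not tested.

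**Figure D4:**
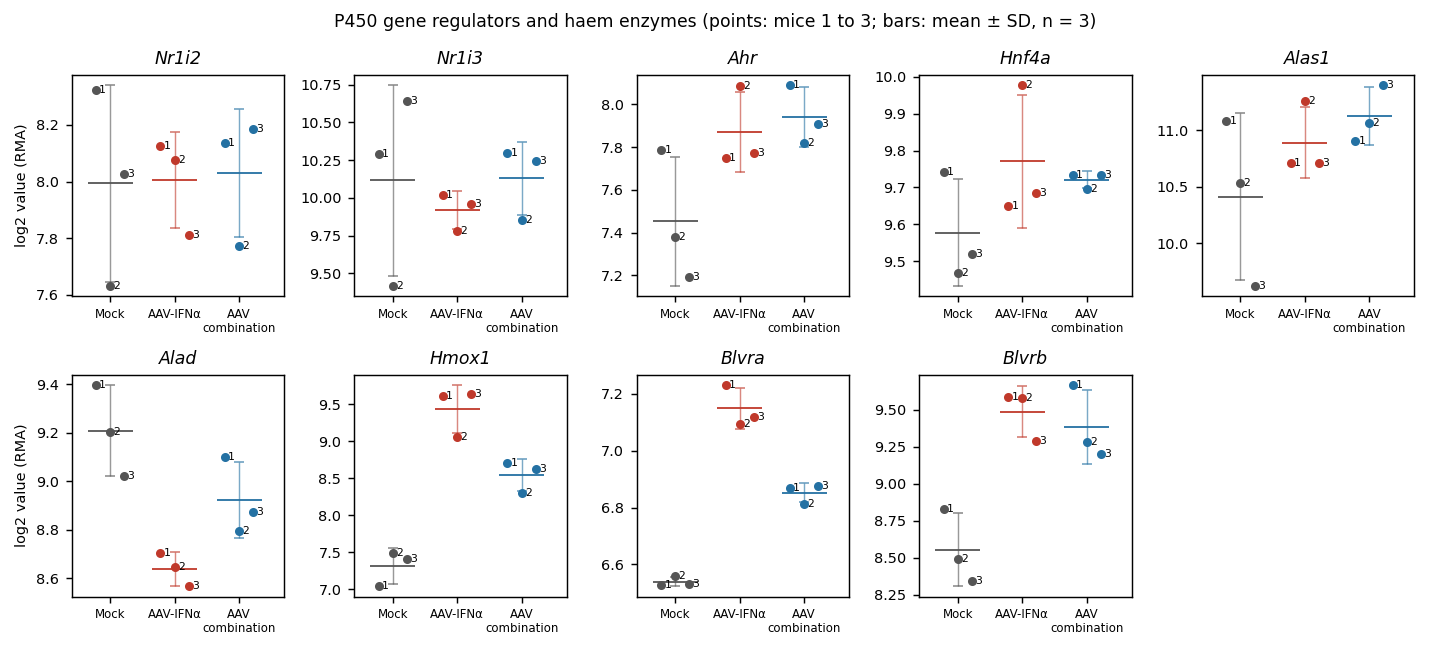
Log2 value (vertical axis, a separate scale per gene) of 4 P450 gene regulators and 5 enzymes of haem synthesis and breakdown, with a numbered point per mouse, the mean as a line and the SD as error bars (n = 3 per group). The groups overlap for Nr1i2, Nr1i3, Hnf4a and Alas1, and do not overlap for Hmox1 and Blvra.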

How the data were processed

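Total RNA of 9 mouse livers was hybridised to 1 array each. The deposited table gives log2 levels of 22142 probe sets, which the authors had background-corrected and normalized by RMA. Clariom S mouse is the array of the methods, but the design text gives another Affymetrix array and the labels polyA RNA. Groups came from the sample titles. The filter of the methods, 2 or more samples of a condition above 5, left 14715 probe sets here. The methods give a far larger number for this criterion, close to the whole deposited table, and testing without the filter was an alternative. All entered a joint two-sided limma fit of 9 arrays (limma 3.58.1, R 4.3.3), with Benjamini-Hochberg adjustment over all of them. limma was tested on simulated data. Figures were drawn with matplotlib 3.10.9. Of the probe sets, 19527 carried 1 gene symbol and 2615 none. These were tested but are not named. For a gene with several probe sets the one with the highest mean was used.

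Named are all called members (up to 12 per comparison), a fixed set of well-known members, and up to 4 called genes per companion list and comparison. Cyp4a12a, Hsd3b5 and Elovl3 were named besides, after the results were seen. The lists and the naming rule were chosen with earlier results of these data known. So was the family, though its members follow from their symbols alone. Replicate numbers were not treated as pairs, since same-numbered samples of different groups deviated together only weakly (r from -0.13 to 0.22). The alternatives were another filter or none, another prior, only the groups compared, the replicate block, another quantile normalization, median centring, array weights, 1 probe set per gene, B above 0, a log2 fold change of at least 1, and leaving out each array. Promoter letters came from RefSeq tables of GRCm38.p6. RT-qPCR, proteomic and histological data were not analysed here.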

Additional observations from a re-analysis of the deposited data

How the results depend on the processing

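Of the 10 calls with AAV-IFNα against Mock, 7 held under all 18 refits at the same adjusted p threshold (Cyp2c37, Cyp2e1, Cyp3a44, Cyp2f2, Cyp2d9, Cyp3a13 and Cyp2a12). None of the 4 and 2 calls of the other comparisons did. The 18 leave out the rules of B above 0 and of a log2 fold change of at least 1. Cyp2e1, Cyp2f2, Cyp3a13 and Cyp2a12 did not reach a B above 0, and none of the 7 reached that fold change. For AAV-IFNα against Mock the number called was 17 after another quantile normalization, 3 by B above 0, 1 with a log2 fold change of at least 1, and 9 to 13 with 1 array left out. For the combination against Mock it was 2, 0 and 0 under the same settings and 0 to 5 with 1 array left out. For the combination against AAV-IFNα it was 1, 1 and 0, and 0 to 4 with 1 array left out. There it was also 1 without the filter, and 4 with a trended and robust prior, with array weights and with the replicate block. The median log2 fold changes kept their sign throughout, from -0.25 to -0.07, 0.02 to 0.15 and 0.14 to 0.25.

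The replicate block called 13, 3 and 4 members. Of 9 same-numbered pairs of samples, 3 correlated above 0.1. The r ran from -0.13 to 0.22 for same-numbered pairs and from -0.25 to 0.19 for the others.

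For the named members, all the differences that changed sign were uncalled. Cyp1a2 with AAV-IFNα against Mock was -0.042 after quantile normalization and -0.079 to 0.22 with 1 array left out, and Cyp3a41a -0.81 to 0.19. Against Mock in the combination, Cyp2b9 was -0.12 to 0.013 and Cyp2e1 -0.22 to 0.013 with 1 array left out. Between the treated groups, Cyp2a5 was 0.0072 with centred arrays, 0.035 with array weights and -0.10 to 0.10 with 1 array left out. Cyp2f2 was 0.011, 0.083 and -0.17 to 0.14 under these settings. With array weights and with 1 array left out, Cyp2r1 was 0.019 and -0.11 to 0.070, and Cyp3a13 0.0030 and -0.15 to 0.035. The cause was not tested. The number of arrays per group limits all of these values.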

Other observations

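Of 35 tested phase I and conjugating enzymes outside families 1 to 3, 9 rose and 5 fell with AAV-IFNα against Mock (11.2% and 5.06% of all probe sets), 8 rose and 1 fell in the AAV combination against Mock (4.19% and 1.03% of all), and between the treated groups 3 were higher and 0 lower in the combination (0.394% and 2.2% of all; limma, 0 lower also at an unadjusted p under 0.05). Ugt2b35, a glucuronosyltransferase, read 8.16, 8.01 and 7.59 in Mock, 9.54, 9.65 and 9.38 with AAV-IFNα, and 9.57, 9.37 and 9.66 in the combination, with log2 fold changes of 1.60 and 1.61 (adjusted p = 1.3e-05 and 3.1e-05, limma). Aox1, aldehyde oxidase, rose by 1.22 and 1.32, and Ephx1, an epoxide hydrolase, by 1.04 and 1.26. For these 3 genes no injected mouse overlapped with Mock. Ugt3a1 changed by -0.95 with AAV-IFNα against Mock (adjusted p = 0.019) and was 1.04 higher in the combination than with AAV-IFNα (adjusted p = 0.042).

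Among 22 tested genes that growth hormone or sex controls in liver, outside families 1 to 3, 2 rose and 11 fell with AAV-IFNα against Mock. In the combination against Mock 1 rose and 5 fell, and between the treated groups 4 were higher and 1 lower in the combination. The shares of all probe sets, which also apply to the acute phase genes below, were 11.2% and 5.06%, 4.19% and 1.03%, and 0.394% and 2.2%. Cux2, a female-specific repressor, read 7.68, 7.80 and 8.01 in Mock, 5.60, 5.90 and 6.17 with AAV-IFNα, and 5.84, 6.15 and 6.09 in the combination, with log2 fold changes of -1.95 and -1.81 (adjusted p = 2.8e-06 and 1.3e-05, limma). The male-predominant Cyp7b1 rose by 0.87 and 1.00 (adjusted p = 0.0055 and 0.0056). Cyp4a12a was the other gene called higher with AAV-IFNα against Mock, and the 1 gene called lower between the treated groups. Hsd3b5 and Elovl3 were among the 11 that fell with AAV-IFNα against Mock. Whether the list moved from a female to a male pattern was not tested. Socs2, which growth hormone induces, changed by -1.88 with AAV-IFNα (adjusted p = 0.0011) and was 1.43 higher in the combination than with AAV-IFNα (adjusted p = 0.029). The cytokine-induced acute phase genes moved in the same livers. Of 25 tested, 15 rose and 0 fell with AAV-IFNα (limma; 1 lower at an unadjusted p under 0.05), 3 rose in the combination, and 5 were below the AAV-IFNα level in the combination. Their part in the P450 values was not tested.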
